A study of Mus musculus with 2 samples.

Results

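The regions described here are USF1 binding sites that lie between genes and carry the CA-centred E-box, CACATG, but lack the CG-centred E-box, which is spelled CACGTG. On the other strand the first of these hexamers reads as CATGTG. They were taken from a list of 10624 USF1 peaks in the mm9 build. A peak was a member when its summit, the position of highest signal, lay over 1 kb and up to 100 kb from the nearest 5′ end of a protein-coding transcript, lay outside every protein-coding gene, and had CACATG and no CACGTG within 50 bp on either side. Of 3119 intergenic peaks in that range of distances, 1152 were members (36.9%, 95% Wilson interval 35.3 to 38.6), 1606 had CACGTG and 361 had neither hexamer.

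The data are ChIP-seq with a USF1 antibody in CH12.LX, an immortalized mouse B-cell lymphoma line of strain B10.H-2aH-4bp/Wts, in 1 group of 2 biological replicates with no treatment named. The mm9 list was made from both replicates together, so a member has 1 signal value and no value per replicate. The deposited values are peak lists, which do not measure the expression of B-cell markers, and the number of reads behind them is unknown. Intervals in parentheses are at the 95% level and cover counting error only, since peaks of the same list are not replicates.

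USF1 is a basic helix-loop-helix leucine zipper factor that binds E-boxes as a dimer, with each subunit contacting a side of the hexamer. CACGTG reads the same on both strands, whereas CACATG does not, so the bases before and after it can be told apart. E-boxes are also bound by related factors such as USF2, TFE3, TFEB and MITF, and such sites occur in promoters and in distal elements of many cell types. Signal below is the authors' value per peak, whose scale is not given in the sources used here, and larger values mean stronger peaks.

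Shown first are 6 of the 20 strongest members, picked because they carry the CCAAT arrangement described below. Of the 20 strongest, 10 carry it and 10 do not, among them the regions near Csf2ra, Spag9 and Ywhaz. Each sequence is the mm9 reference read 5′ to 3′ on the strand that holds CACATG, with CACATG and the CCAAT pentamer (ATTGG on the other strand) in capitals.
Zfp362 region: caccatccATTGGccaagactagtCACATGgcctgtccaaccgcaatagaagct
1110021J02Rik region: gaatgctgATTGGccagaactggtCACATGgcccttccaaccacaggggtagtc
Rftn1 region: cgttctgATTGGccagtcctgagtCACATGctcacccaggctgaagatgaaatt
Pak6 region: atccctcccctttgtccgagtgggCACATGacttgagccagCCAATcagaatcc
Rap1gap region: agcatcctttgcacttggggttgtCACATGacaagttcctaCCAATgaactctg
Hmcn2 region: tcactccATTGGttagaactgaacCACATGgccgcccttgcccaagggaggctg
The Zfp362 sequence is chr4:128488814-128488867 on the plus strand, and the 1110021J02Rik sequence is chr17:29906181-29906234 on the minus strand. The Rftn1 sequence is chr17:50349401-50349454 and the Pak6 sequence chr2:118485787-118485840, both on the plus strand. The Rap1gap sequence is chr4:137295242-137295295 on the plus strand and the Hmcn2 sequence chr2:31153545-31153598 on the minus strand. Regions are named by the nearest gene only, and no link to that gene's expression was measured.

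The strongest member had a signal of 2381 and lay 5537 bp upstream of Zfp362, a zinc finger gene. The next had 2367 and lay 52253 bp upstream of 1110021J02Rik, whose own start had a USF1 peak within 1 kb. The other members above 1000 lay near Csf2ra (1526), which encodes a subunit of the GM-CSF receptor, Rftn1 (1495), which encodes the lipid raft protein raftlin, Pak6 (1366), a serine/threonine kinase, and Spag9 (1028), a scaffold of JNK signalling. The 20 strongest also included regions near Arhgap25 (975) and Rap1gap (955), which encode GTPase-activating proteins, Ywhaz (938), a 14-3-3 protein, and Csk (833), the kinase that restrains Src-family kinases. The rest of the 20 lay near Pthlh (909), Hmcn2 (851), Tpt1 (801), Smug1 (788), Irgm2 (787), BC031781 (777), Pebp4 (760), Gm6728 (740), Gm9034 (726) and Trh (664). Of these 20 regions, 18 still qualified with an E-box window of 25 bp each side.

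As a group, members were weaker than intergenic peaks with CACGTG and stronger than those with neither hexamer. Member signal ran from 29.02 to 2381 with a median of 55.1 (52.4 to 59.03), and the middle 50% of members lay between 38.97 and 99.7. Intergenic CACGTG peaks had a median of 62.2 (58.4 to 65.5), and a member outranked such a peak in 46.0% of pairs (DeLong interval 43.8 to 48.1). Intergenic peaks with neither hexamer had a median of 46.8 (43.4 to 50.5), and a member outranked them in 58.8% of pairs (55.4 to 62.1). Fewer members than CACGTG peaks reached a high signal: 24.8% of members had a signal above 100, against 31.5% of intergenic CACGTG peaks (difference -6.68 points, Newcombe interval -10.0 to -3.28). Above 1000 there were 6 members and 34 intergenic CACGTG peaks. Peaks with only CACATG inside introns, 1332 in number, had a median of 55.3 (52.5 to 58.8), and a member outranked them in 50.2% of pairs (47.9 to 52.5). No difference in rank over all peaks was thus resolved between those positions. At the upper end member values were higher, at 328 against 255 at percentile 94 and 608 against 440 at percentile 98. No intervals were computed for these percentiles.

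**Figure D1:**
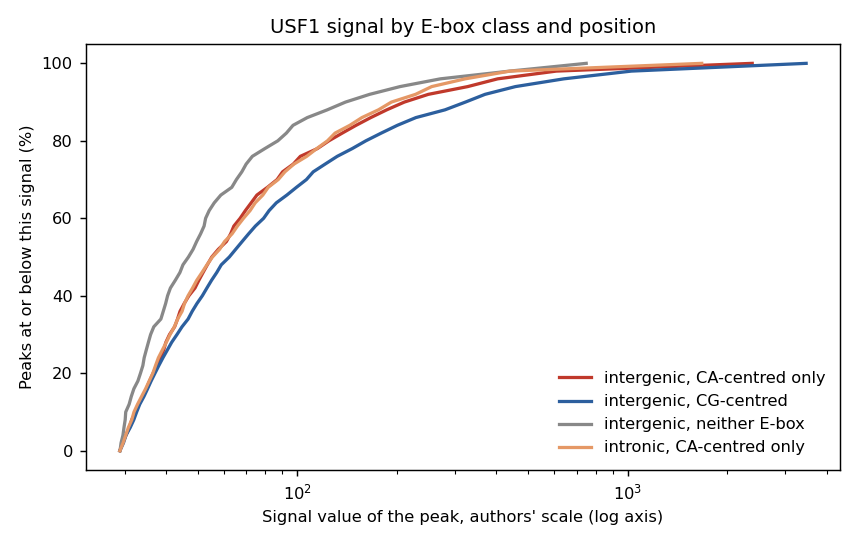
Cumulative share of peaks (%) against the authors' signal on a log axis, in 4 classes of the mm9 list. The curve of the 1152 intergenic CA-centred-only peaks (median 55.1) runs between that of intergenic CG-centred peaks (62.2) and that of intergenic peaks with neither E-box (46.8). It stays close to that of intronic CA-centred-only peaks (55.3) except at the upper end.

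The share of members lay between 33.7% and 41.03% across bins of signal, and between 35.5% and 38.2% across distances. In 5 equal bins of intergenic peaks from strongest to weakest, members made up 33.7%, 36.1%, 38.1%, 41.03% and 35.8%. The share rose from 33.7% in the strongest bin (30.1 to 37.5) to 41.03% in bin 4 (37.2 to 44.9). The strongest bin differed from the weakest by -2.14 points (-7.40 to 3.14). CACGTG peaks made up 60.1%, 55.1%, 49.04%, 46.8% and 46.4% of the same bins, and peaks with neither hexamer 6.25%, 8.81%, 12.8%, 12.2% and 17.8%. By distance, members were 35.5% of intergenic peaks 1 to 5 kb from a start (31.3 to 40.05), 35.8% at 5 to 20 kb, 37.9% at 20 to 50 kb and 38.2% at 50 to 100 kb (34.5 to 42.0). Within 1 kb of a start, CACATG-only peaks were 12.4% of peaks, and in introns they were 38.5%, which differed from the intergenic share by -1.61 points (intergenic minus intronic, -3.95 to 0.740). Members 1 to 5 kb from a start had a median signal of 46.8 (43.3 to 56.2), against 70.5 for CACGTG peaks at that distance, and outranked them in 39.8% of pairs (34.1 to 45.5).

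**Figure D2:**
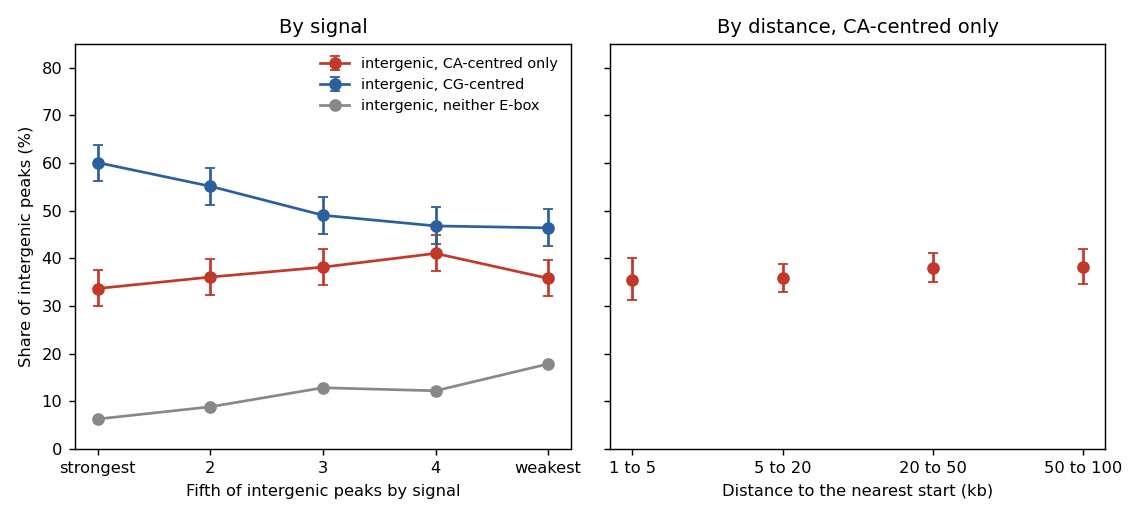
Left, share of intergenic peaks (%) in each E-box class in 5 equal bins of signal; right, share of members by distance to the nearest start in kb. Points are shares and bars are 95% Wilson intervals (none drawn for peaks with neither E-box); members stay between 33.7% and 41.03% across the signal bins and between 35.5% and 38.2% across distances.

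The positions and the rule's edges were as follows. The nearest start lay 22078 bp away at the median, and 69.5% of members were upstream of it (66.8 to 72.1), against 69.9% of intergenic CACGTG peaks. Of the members, 73 (6.34%) lay inside a gene of another biotype. The 55 members 1 to 2 kb from a start had a median signal of 46.8. The 383 CACATG-only peaks within 1 kb had 76.4. They were counted inside and outside genes, so the 2 sets differ in more than distance. The 21 members 90 to 100 kb away had 64.9, and 26 CACATG-only peaks 100 to 110 kb away had 52.3. CACGTG centred just beyond the window, up to 75 bp from the summit, was present at 11 members, with a median signal of 52.2. Chromosome 11 held 117 members, the most of any chromosome, and also the most intergenic peaks (329).

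The E-box sat close to the summit. The centre of the CACATG copy nearest the summit was 11.5 bp from it at the median (10.5 to 12.5), against 10.5 bp for CACGTG in intergenic CACGTG peaks. It was within 25 bp in 88.0% of members, against 92.03% of those peaks (difference -4.01 points, -6.36 to -1.75). Stronger members had it closer: the median distance was 7.5 bp in the strongest signal bin and 14.5 bp in the weakest. Read on the CACATG strand, the core lay before the summit in 48.6% of members (45.7 to 51.5), so no lean of the summit was resolved to either side of the asymmetric hexamer.

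The bases beside the hexamer were far from even, and T before it was more common than A after it. T preceded CACATG in 81.7% of members (79.3 to 83.8), against 21.5% of 1825 CACATG copies located 250 to 1000 bp from the same summits. A followed it in 60.2% (57.3 to 62.9), against 20.3% of those copies. At 2 bases before the core, G was found in 68.1%, against 21.1% of copies away, and at 2 bases after it C was found in 60.3%, against 21.8%. At 3 bases before the core G was still at 43.2%, against 22.6%, and at 3 bases after it C was at 41.4%, against 27.1%.

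Of the 16 forms of the octamer, TCACATGA was the most frequent at summits. It made up 547 of the 1152 copies nearest a summit (47.5%, 44.6 to 50.4), against 5.81% of copies away (difference 41.7 points, 38.6 to 44.7). TCACATGG followed with 238 (20.7%), against 5.10% away, then TCACATGT with 80 (6.94%, against 5.59%) and TCACATGC with 76 (6.597%, against 4.99%). The intervals of the differences for the last 2 forms included 0. The least frequent forms were ACACATGG and ACACATGT, with 2 copies each, where copies away had 6.19% and 8.16%. TCACATGA with a further G before and C after it, GTCACATGAC, alone accounted for 284 members (24.7%, 22.3 to 27.2), against 0.822% of copies away.

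The strongest member of each flank class shows these forms in full, with the octamer in capitals.
T before and A after, Csf2ra region: ggaacagtaggTCACATGAtggccagccac
T before only, Zfp362 region: gccaagactagTCACATGGcctgtccaacc
A after only, Pak6 region: tgtccgagtggGCACATGActtgagccagc
neither, Hmcn2 region: ttagaactgaaCCACATGGccgcccttgcc
The Csf2ra sequence is chr19:61341396-61341425 on the plus strand, close to the end of chromosome 19 in mm9, and the Zfp362 sequence is chr4:128488826-128488855 on the plus strand. The Pak6 sequence is chr2:118485799-118485828 on the plus strand and the Hmcn2 sequence chr2:31153557-31153586 on the minus strand.

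Flanking bases differed between summits and their surroundings, but no difference in member signal between flank classes was resolved. T before and A after were both present in 547 members, T before only in 394 (34.2%, against 15.7% of copies away), A after only in 146 (12.7%, against 14.5%) and neither in 65 (5.64%, against 64.1%). For A after only the difference from copies away was -1.79 points (-4.26 to 0.768). Median signal was 57.3 (53.2 to 62.5) with both, 55.3 (51.04 to 61.95) with T before only, 51.8 (47.8 to 61.6) with A after only and 46.8 (42.7 to 68.4) with neither. A member with both outranked a member with neither in 55.0% of pairs (47.3 to 62.7), an interval that includes 50%, and the 4 classes overlapped across nearly their whole range. The class with neither base still reached 851 at the Hmcn2 region, and the 2 strongest members of all had T before and G after.

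**Figure D3:**
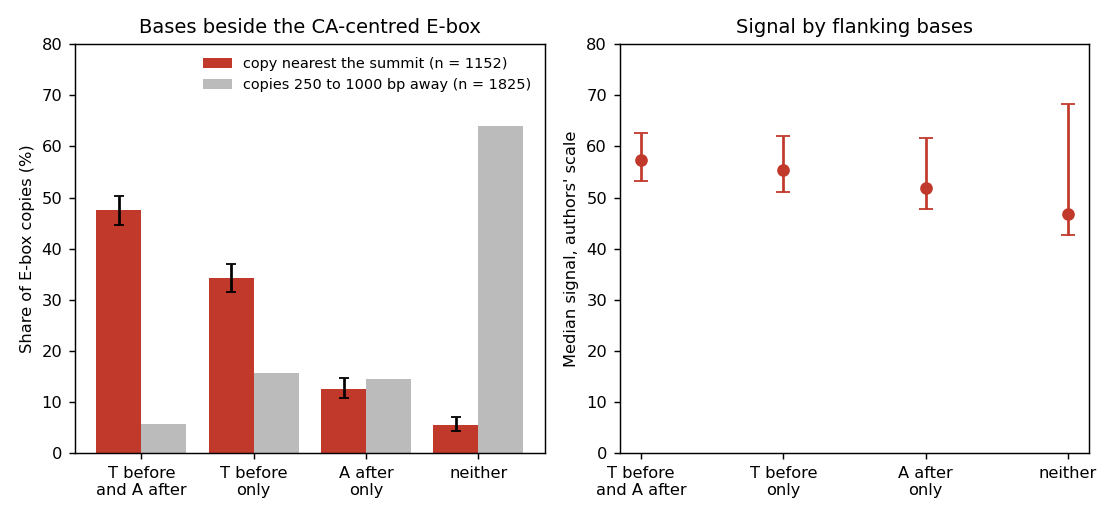
Left, share (%) of CA-centred E-box copies in 4 classes of flanking base. Copies are those nearest the summit of each member and those 250 to 1000 bp away. Error bars are 95% Wilson intervals (none drawn for copies 250 to 1000 bp away). Right, median signal (authors' scale) of members in each class with its 95% interval: the shares differ by up to 58.4 points between summit and surroundings, while the medians lie between 46.8 and 57.3.

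These flanks were more frequent beside CACATG in members than beside CACGTG. T before and A after flanked the E-box in 47.5% of members, against 29.5% of intergenic CACGTG peaks (difference 17.97 points, 14.3 to 21.6). At least 1 of the bases was present in 94.4% of members, against 75.8% of those peaks (difference 18.6 points, 16.1 to 21.04). Intronic CACATG-only peaks had both in 45.4%, which differed from members by 2.06 points (-1.87 to 5.99).

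Most members had a single CACATG. A lone copy lay in the window of 963 members, 2 in 159, 3 in 23 and 4 or more in 7, with 8 the most. The window 500 bp upstream in the reference direction, whatever the strand of the nearest gene, held a copy in 8.16% of members and 2 or more in 1.04%. Members with 2 or more copies, 189 in all, outranked members with 1 in 53.4% of pairs (48.9 to 57.9). In 25 of them 2 copies on opposite strands overlapped at a spacing of 2 bp. The 3 strongest members with more than 1 copy lay near Nenf (557), Tnfrsf13b (552) and Pla2g6 (551). Their windows show that the copies lie at different distances and on either strand, with each copy in capitals.
Nenf region: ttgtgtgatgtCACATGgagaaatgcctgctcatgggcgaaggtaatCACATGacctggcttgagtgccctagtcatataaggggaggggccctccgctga
Tnfrsf13b region: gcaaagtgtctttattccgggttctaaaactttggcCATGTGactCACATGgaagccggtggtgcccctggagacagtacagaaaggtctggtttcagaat
Pla2g6 region: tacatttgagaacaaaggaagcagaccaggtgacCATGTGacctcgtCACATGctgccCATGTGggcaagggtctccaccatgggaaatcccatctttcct
The windows are chr1:193101506-193101606 on the minus strand, chr11:60936521-60936621 on the plus strand and chr15:79165934-79166034 on the minus strand.

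CCAAT, the pentamer bound by the trimeric factor NF-Y, stood at a fixed distance from the E-box. In 111 members (9.64%, 8.06 to 11.5) a CCAAT began 11 or 12 bases after the core, or its reverse complement ATTGG ended 11 or 12 bases before it, so that the pentamer pointed away from the E-box on either side. The gap was 11 bases in 55 members and 12 in 60, some having it on both sides. CCAAT was in the summit window of 238 members, and at a place other than these gaps in 155. At each of the other 80 combinations of a gap of up to 40 bases with an orientation, at most 6 members had a match, with a mean of 1.78. The gaps were picked from these counts, so the share itself is a description. Among the 1825 CACATG copies 250 to 1000 bp from the summits, 6 (0.329%) had CCAAT in that arrangement.

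Both other sets of peaks, which were not used to pick the gaps showed the same pair of gaps. Intronic CACATG-only peaks had CCAAT at a gap of 11 bases in 51 peaks and of 12 in 28, or 77 of 1332 peaks together (5.78%, 4.65 to 7.17). Intergenic CACGTG peaks had it at 11 in 30 peaks and at 12 in 24, or 51 of 1606 together (3.18%, 2.42 to 4.15). The member share was higher than the intronic share by 3.85 points (1.76 to 6.01) and than the intergenic CACGTG share by 6.46 points (4.61 to 8.45), with the reservation that the gaps were chosen on members.

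**Figure D4:**
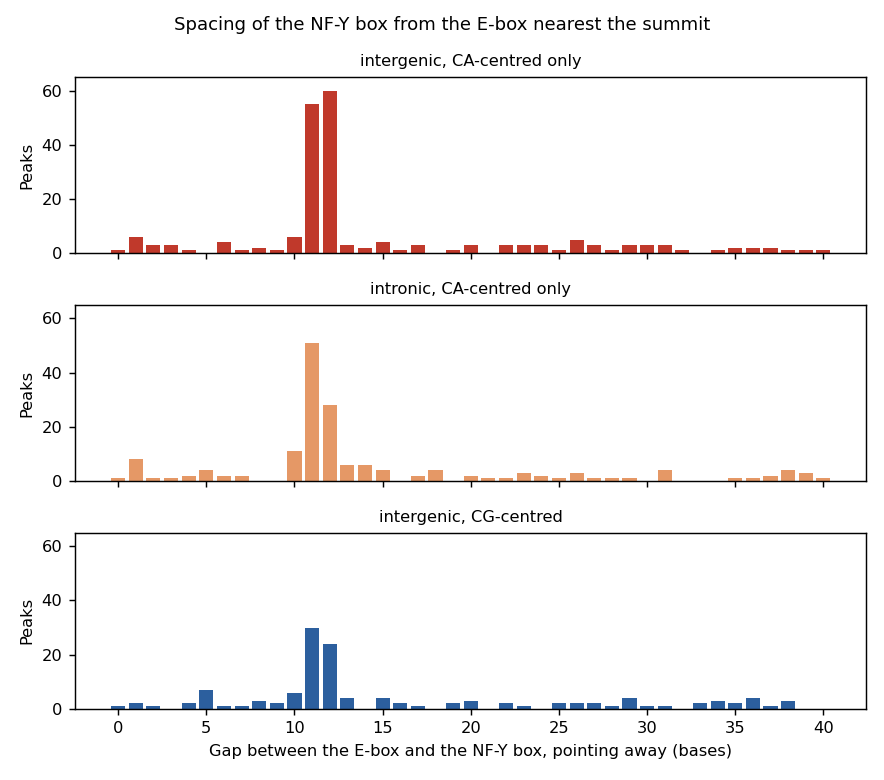
Number of peaks with an NF-Y box (CCAAT on either strand, pointing away from the E-box) at each gap of 0 to 40 bases from the E-box nearest the summit, in members, intronic CA-centred-only peaks and intergenic CG-centred peaks. Members have 55 and 60 peaks at gaps of 11 and 12 bases and at most 6 at any other gap.

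Members with the spaced CCAAT were more common at the strong end. Their median signal was 64.5 (55.5 to 83.8), against 53.96 (51.7 to 57.7) in other members, and they outranked other members in 58.0% of pairs (52.0 to 64.0). Of the 20 strongest members 10 had it, of the strongest 50 there were 16, and of the strongest 100 there were 21. In 5 equal bins of members by signal the share was 15.2% in the strongest and 6.96%, 9.96%, 7.83% and 8.26% in the following bins, and the strongest exceeded the weakest by 6.89 points (0.997 to 12.8). Intronic CACATG-only peaks with the spaced CCAAT had a median of 76.3, against 54.6 without it, and outranked the others in 58.4% of pairs (51.8 to 64.98). Intergenic CACGTG peaks with it had a median of 92.2, against 61.7 without it, but outranked the others in 55.7% of pairs (46.5 to 64.95), an interval that includes 50%. Without the 20 strongest members, the members with the spaced CCAAT outranked the others in 54.4% of pairs (48.3 to 60.5), an interval that includes 50%.

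Some members with the spaced CCAAT shared sequence with other members. A run of 30 identical bases was shared by 6 of the 111. The runs counted here could lie anywhere in the summit window and need not hold the spaced pair. They could include CACATG, which every member has. A run of 16 identical bases, on either strand, was shared with the summit window of another member by 52 of the 111 (46.8%, 37.8 to 56.1), against 383 of the 1041 others (36.8%, 33.9 to 39.8; difference 10.1 points, 0.556 to 19.7), and by 6 of the 10 among the 20 strongest. Without all members that shared such a run, 8.23% of members (6.43 to 10.5) had the spaced CCAAT, and they outranked the others in 55.5% of pairs (46.7 to 64.2), an interval that includes 50%. The part of shared sequence in the spacing was not tested further. Over the 24 bases on each side of the core, the most alike other member matched 56.3% of bases at the median for members with the spaced CCAAT and 50% for other members. A partner with at least 75% identity existed for 7 of the 111 (6.31%, 3.09 to 12.4) and for 33 of the 1041 others (3.17%, 2.27 to 4.42). Among the 1112 members with no such partner, 104 had the spaced CCAAT (9.35%). Bases were compared on the CACATG strand and without gaps. A related sequence shifted against the core, or with CACATG on its other strand, could be missed by that comparison. The 2 strongest members, near Zfp362 and 1110021J02Rik, matched at 29 of 48 bases. T before and A after flanked the core in 43.2% of the 111 and in 47.9% of other members (difference -4.69 points, -14.0 to 5.08).

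CCAAT and 19 other motif strings, chosen for B-cell and general factors, were searched on both strands in the summit windows and in windows 500 bp upstream. For these windows upstream means towards lower reference coordinates, whatever the strand of the nearest gene. By an exact two-sided McNemar test with Benjamini-Hochberg adjustment over the 20, 8 were more frequent at summits and 1 was less frequent; 10 had an unadjusted p under 0.05. Several of the higher ones overlapped the E-box itself, so matches that touched a CACATG copy or the 2 bases on each side of it were also counted apart, a step added after the overlap was seen.

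The largest excess was that of AGGTCA, the core of many nuclear receptor sites, and it lay mostly on the E-box. It was present in 264 member windows (22.9%), against 5.90% upstream (exact McNemar test, adjusted p = 1.04e-30). In 194 members a match touched the E-box: 122 read AGGTCACATG, the hexamer sharing TCA with the octamer, and 67 had the mirror image TGACCT starting in the last bases of the core. Matches apart from the E-box occurred in 90 members (7.81%, exact McNemar test, adjusted p = 0.205). TGANTCA, the AP-1 site, was in 10.2% of windows against 4.51% upstream (exact McNemar test, adjusted p = 1.25e-06), but apart from the E-box it was in 67 members, against 52 upstream (exact McNemar test, adjusted p = 0.341). In 40 members TGANTCA led into the core from before and in 18 from after. TGTGGTT, the RUNX site, was in 4.95% against 2.52% (exact McNemar test, adjusted p = 0.00995), and apart from the E-box in 3.04% (exact McNemar test, adjusted p = 0.819).

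The calls of NF-Y, E2A, PU.1, octamer and GATA strings held for matches apart from the E-box, whereas that of the NF-kB string did not. CCAAT was in 20.7% of windows against 12.4% upstream (exact McNemar test, adjusted p = 1.05e-06), and in 20.3% apart from the E-box (exact McNemar test, adjusted p = 6.61e-06). CCAAT at any place other than the 2 gaps was in 13.5% of windows (11.6 to 15.5), close to the 12.4% upstream (10.6 to 14.4). CAGCTG, the E-box of E2A and other class I factors, was in 9.46% against 4.86% (exact McNemar test, adjusted p = 0.000125), and in 9.11% apart from CACATG (exact McNemar test, adjusted p = 0.000581). GAGGAAGT, a site of the ETS factor PU.1, was in 2.26% against 0.781% (exact McNemar test, adjusted p = 0.0171), and apart from the E-box in 2.17% (exact McNemar test, adjusted p = 0.0362). ATTTGCAT, the octamer of OCT1 and OCT2, was in 1.30% against 0.260% (exact McNemar test, adjusted p = 0.0188), with no match on the E-box. GGGANTTCC, a form of the NF-kB site, was in 9 windows (0.781%) against 1 upstream (exact McNemar test, adjusted p = 0.0477), and apart from the E-box in 8 (exact McNemar test, adjusted p = 0.112). AGATAA, the GATA site, was the string found less often at summits, in 2.08% against 5.12% (exact McNemar test, adjusted p = 0.000618).

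**Figure D5:**
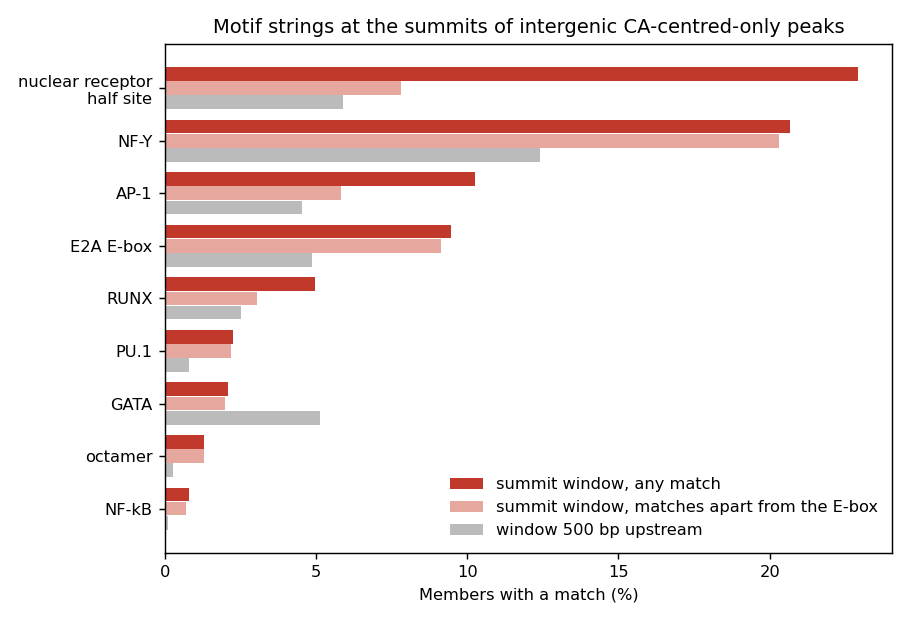
Share of members (%) with each of the 9 motif strings that passed the test, in the summit window, in the summit window counting only matches apart from the E-box, and in the window 500 bp upstream. Upstream is in the reference direction. The nuclear receptor, AP-1 and RUNX bars shrink towards the upstream level once matches on the E-box are set aside (22.9% to 7.81% for the nuclear receptor string), while NF-Y stays at 20.3%.

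Set against intergenic CACGTG peaks, members had 4 strings more often and 2 less often, by the interval of the difference. AGGTCA was in 22.9% of members and 13.3% of CACGTG peaks (difference 9.65 points, 6.74 to 12.6), and CCAAT in 20.7% and 12.6% (8.08 points, 5.26 to 10.96). TGANTCA differed by 2.83 points (0.701 to 5.06) and TGTGGTT by 1.83 points (0.362 to 3.43). The E-box letters that define the classes can form part of some strings, so matches that touched an E-box of either kind were also set aside in both classes. The difference was then 1.27 points for TGANTCA (-0.387 to 3.03) and 0.361 points for TGTGGTT (-0.881 to 1.71), both with intervals that include 0. For AGGTCA it was 2.33 points (0.464 to 4.31) and for CCAAT 8.30 points (5.51 to 11.1). GGGCGGG, the GC box of SP and KLF factors, was in 1.39% of members and 2.74% of CACGTG peaks (difference -1.35 points, -2.41 to -0.250). AGATAA differed by -1.40 points (-2.62 to -0.130). Against intronic CACATG-only peaks, CCAAT was the single string with an interval that excluded 0, at 20.7% of members and 14.7% of those peaks (5.95 points, 2.94 to 8.97). Over 301 bp the median share of G and C was 47.8% in members (47.5 to 48.2), against 48.8% (48.5 to 49.2) in intergenic CACGTG peaks. In intronic CACATG-only peaks it was 48.2% (47.8 to 48.8), an interval that overlaps that of members. The part of this composition in the motif differences was not tested.

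The 1152 members had 1019 different nearest genes, which is 4.58% of the 22238 protein-coding genes. Of these genes 114 were nearest to 2 or more members, and S1pr3, a sphingosine 1-phosphate receptor gene, and Sik1, a salt-inducible kinase gene, were nearest to 4 each. A USF1 peak within 1 kb of a start was present for 20.6% of the 1019 genes (18.2 to 23.2), against 18.8% of genes nearest an intergenic CACGTG peak and 14.3% of all genes. Members and intergenic CACGTG peaks shared 250 nearest genes, which is 24.5% of the 1019 and 17.6% of the 1417 of CACGTG peaks.

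Among the nearest genes of members were some genes of the B-cell lists. Of 52 genes in 2 B-cell lists, 17 were nearest to a member (32.7%, 21.5 to 46.2), beside the 4.58% of all genes. Of 22 B-cell transcription factor genes 6 were (Ebf1, Foxo1, Ikzf1, Irf4, Lef1 and Xbp1), and of 30 genes for the B-cell receptor, surface proteins and signalling 11 were (among them Blnk, Ccr7, Cd79b, Cd83, Cxcr4, Faim3, Lyn, Plcg2, Swap70 and Tnfrsf13b). The B-cell marker genes Pax5, Cd79a and Ms4a1 were not among the 17. Intergenic CACGTG peaks were nearest to 16 of the same 52 genes (30.8%, 19.9 to 44.3), beside 6.37% of all genes, and 8 genes were nearest to both kinds. Of 19 T-cell markers 3 were nearest to a member (Cd2, Ctla4 and Icos, 15.8%, 5.52 to 37.6). In the other lists the counts were 2 of 25 autophagy genes (Gabarapl1 and Vps18), 2 of 20 bHLH-ZIP factors (Mitf and Myc) and 1 of 20 clock genes (Csnk1e). They were 1 of 32 lysosome and vacuolar ATPase genes (Naglu), 1 of 17 liver markers (Pck1) and 0 of 17 neuron markers. These small counts depended on how genes were assigned. With every gene that has a start within 100 kb of a member, which takes in 13.96% of all genes, the counts were 21 of 52 B-cell genes, 5 of 20 clock genes, 4 of 20 bHLH-ZIP factors, 4 of 19 T-cell markers, 3 of 32 lysosome genes and 1 of 17 neuron markers. The lengths of intergenic space around the genes of each list were not measured, and their part in these counts was not tested.

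The 20 members nearest to those 17 B-cell genes had signals from 29.8 to 552 with a median of 51.8, beside the 55.1 of all members. The strongest member of these lay 3686 bp upstream of Tnfrsf13b, which encodes the TACI receptor, with a signal of 552 and the paired copies printed above. A region 64644 bp downstream of a Swap70 start had 501, and 2 further members upstream of Swap70, which encodes a signalling protein of activated B cells, had 50.3 and 35.0. The Foxo1 region, 70196 bp upstream of this regulator of B-cell development, had 402, and the Xbp1 region, 19259 bp upstream of a plasma cell factor, had 159. Cxcr4, the chemokine receptor gene, had a member 77695 bp downstream with 130 and another 23348 bp upstream with 93.8. The regions near Cd79b, a signalling chain of the B-cell receptor, Cd83 and Blnk, an adaptor below the receptor, had 74.8, 62.4 and 59.03. The E-boxes at the strongest of these show T before the core except at Cd79b, with the octamer in capitals.
Swap70 region: cgttggggaagTCACATGGtgagggacttt
Foxo1 region: ctgttaccgtgTCACATGGtccctgcataa
Xbp1 region: tcagcatgaggTCACATGGgcaggggttta
Cxcr4 downstream region: taaccttgaaaTCACATGAcacttctgtgg
Cd79b region: gccctgggtggGCACATGCcccactgccca
These are chr7:117429840-117429869 on the plus strand, chr3:52002048-52002077, chr11:5401388-5401417, chr1:130411158-130411187 and chr11:106169709-106169738, the last 4 on the minus strand.

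The remaining B-cell members had signals up to 53.3. Signals were 53.3 near Plcg2, a phospholipase of receptor signalling, 49.4 near Lyn, a Src-family kinase, 46.9 near Ikzf1, the Ikaros gene, and 43.8 near Faim3. They were 42.7 near Lef1, 41.1 near Ccr7, a homing receptor gene, 38.1 near Irf4 and 29.8 near Ebf1, an early B-cell factor. The Irf4 region, 38521 bp downstream of a start of this plasma cell and germinal centre factor, holds 3 copies of CACATG in a repeated unit, as its window shows.
Irf4 region: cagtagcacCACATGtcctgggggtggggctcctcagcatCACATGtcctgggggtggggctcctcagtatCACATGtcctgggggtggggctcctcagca
This window is chr13:30879566-30879666 on the plus strand. The Lef1 region, with CCACATGT, and the Cd79b region were the B-cell members with neither T before nor A after.

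The replicates could be compared for position only, in mm10, where no sequence was used. Among the 8108 strongest regions of each replicate, the share of summits 1 to 100 kb from a start and outside genes was 26.1% in replicate 1 and 26.4% in replicate 2 (mean 26.3% ± 0.253, SD, n = 2). It was 26.7% in the optimal list of the same size. The share of those regions with only CACATG is not known per replicate.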

How the data were processed

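USF1 ChIP-seq was deposited for 2 biological replicates of CH12.LX. Per the deposited readme files, the mm9 peak list was derived from the alignments of both replicates; which aligner and caller were run, and at what threshold, is not given in the sources used here, and depth is unknown. The authors' signal (column 7 of each deposited list) was used as deposited, its scale not given. Column 9 of the deposited lists was read as a score, since the authors' values fall below 0 in some lists, and served for ties and as an alternative.

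Each summit was the deposited start plus column 10. Every mm9 peak lay on a chromosome of the NCBIM37 genome and within its length, and starts and spans came from Gencode vM1. Windows of 101 bp were searched on both strands with Python 3.11.15, pandas 2.3.3, SciPy 1.17.1 and pysam 0.24.0. Shares have Wilson, differences Newcombe, medians order-statistic and pairwise ranks DeLong intervals, all at 95%; motif strings were tested by an exact McNemar test with Benjamini-Hochberg adjustment at 0.05. The procedures were tested on simulated data. Replicates were compared in mm10 with RefSeq genes of GRCm38.p6, of which 20587 of 21900 had a strand taken from Gencode by symbol; no coordinates were converted. Since the labels name 2 biological replicates but the mm9 list pools them, the p-values measure variation over peaks, not between cultures. Of 203 gene list entries, 202 matched the annotation.

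The members, motif strings and gene lists were chosen with earlier results of these data known. Named regions are the 20 strongest members, the strongest of each flank class, the 3 strongest with 2 or more copies and those nearest a B-cell list gene, of which 1 gene is not reported here; named motif strings are those past the threshold or with an interval excluding 0, and named flank forms the 4 most and 2 least frequent. The CCAAT spacing, the matches apart from the E-box and the shared runs were examined after values were seen. Sequences on chromosome 18 are not reported here.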

Additional observations from a re-analysis of the deposited data

How the results depend on the processing

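Of 127 recomputed values, 99 kept their direction and their side of the threshold (or stayed within their interval or within 1.5 times for a count), 18 kept their direction but no longer passed, 10 moved and 0 reversed. With an E-box window of 25 bp each side, the member share of intergenic peaks was 32.2%, against 36.9%. With a motif window of 25 bp each side, 5 of the 20 strings passed in place of 9, and 5 passed when matches on the E-box were set aside, which was added after seeing the data. The 4 calls lost by that step were AGGTCA, AP-1, RUNX and NF-kB; of their members with a match, 194 of 264, 58 of 118, 23 of 57 and 1 of 9 had one on the E-box. The shorter window lost PU.1, the octamer, NF-kB and GATA, and the cause was not tested. With the control window downstream 7 passed, and RUNX (exact McNemar test, adjusted p = 0.0591) and NF-kB (exact McNemar test, adjusted p = 0.934) did not. Taking the strongest 4054 regions per replicate in place of 8108, the intergenic share was 23.4%, against 26.3%; leaving out a replicate gave 26.1% to 26.4%. The share with the spaced CCAAT was 11.6% among the strongest 50% of members, against 9.64%, and 9.25% and 8.23% without members that share 30 or 16 bases with another. Against intergenic CACGTG peaks, 4 strings in place of 6 differed once matches on an E-box were set aside. Assigning every gene with a start within 100 kb gave 21 in place of 17 B-cell genes and 5 in place of 1 clock genes, beside 13.96% in place of 4.58% of all genes. No paired analysis was possible because the mm9 list holds no values per replicate.

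Depth is unknown, and members were listed down to a signal of 29.02, so CACATG sites under the authors' threshold are not seen. Members carry no replicate error, and intervals cover counting error over peaks only.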
